A study of Mus musculus with 24 samples.

Results

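The uninjured cortex of postnatal day 9 mice was compared with the striatum/thalamus of the same animals, on an nCounter panel in which each mRNA is bound by a barcoded probe and counted without amplification. The comparison rests on 8 of the 24 libraries of the study, the right cortex and the right striatum/thalamus of the 4 sham pups, which were chosen by the region, the injury label and the subject number (pups 2, 3, 6 and 8). Of 757 endogenous genes counted, 735 reached 20 counts in 4 or more of these libraries and were tested.

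The study asked how microRNAs change by brain region early after neonatal hypoxic-ischemic brain injury (HIBI), and the mRNA panel used here was run on the same regions. The 4 sham cortex and the 4 sham striatum/thalamus libraries came from CD1 pups, an outbred stock, of both sexes. These pups had anesthesia, a local analgesic and neck dissection without vessel ligation, stayed in normal air and were killed 30 min after the matching hypoxia period, so they had surgery but no injury. The 4 HIBI cortex and 4 HIBI striatum/thalamus libraries, used here for a second look at the same region difference, came from pups 1, 4, 5 and 7. Their right common carotid artery was cauterized, they later spent 30 min in 8% oxygen, and they were killed 30 min after that. All of these pups were CD1 mice at postnatal day 9. The cortex was taken whole, the hippocampus was dissected away, and striatum and thalamus were 1 piece of tissue, so that values of the striatum/thalamus mix both structures in a proportion that was not measured.

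Excitatory neurons of the cortex load glutamate into vesicles mainly with VGLUT1, whereas most relay neurons of the thalamus use VGLUT2. The main projection neurons of the striatum release GABA. Oligodendrocytes, which wrap axons in myelin, mature at different times in different parts of the postnatal forebrain, while microglia, the resident macrophages, and astrocytes occupy all of it.

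Total counts were 995235 to 1129004 in sham cortex and 935799 to 1046405 in sham striatum/thalamus, with an exact sign-flip p of 0.375 over the 4 pups (two-sided, smallest possible 0.125). The mean count of the 8 negative control probes was 20.8 to 25.1 in cortex and 20.8 to 25 in striatum/thalamus, so a gene counted near 20 times has a fold pulled toward 1 by background. The summed positive controls were lower in cortex in 4 of 4 pups (68984 ± 2540 in cortex and 76832 ± 1159 in striatum/thalamus, SD, n = 4, exact p = 0.125), and the part of this in the results was not tested. The Y-linked Uty, picked after its values were seen, had 26.7, 593, 16.4 and 25.6 normalized counts in the cortex of pups 2, 3, 6 and 8, against 38.2, 606, 26.1 and 22.2 in their striatum/thalamus, so it was above background in the 2 libraries of pup 3 alone. Normalized counts are raw counts divided by the scaled library size. The regions were compared within each pup, so p-values measure how much their difference varied between these pups, whose litters are not given.

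The promoters of 4 genes that carry the region difference are shown as given by RefSeq on GRCm38.p6 (250 bases before the start and 50 from it, on the plus strand). The first pair belongs to the vesicular glutamate transporters, which differed in opposite directions. Capitals mark the 50 bases from the start. Slc17a6 has 2 annotated starts and both are given.
Slc17a7, chr7:45163671-45163970: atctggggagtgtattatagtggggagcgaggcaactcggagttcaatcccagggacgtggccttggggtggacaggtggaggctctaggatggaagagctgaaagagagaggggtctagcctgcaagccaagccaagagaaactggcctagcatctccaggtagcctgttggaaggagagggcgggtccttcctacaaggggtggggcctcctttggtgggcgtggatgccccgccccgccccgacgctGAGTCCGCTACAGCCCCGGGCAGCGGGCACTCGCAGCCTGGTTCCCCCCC
Slc17a6, chr7:51621580-51621879: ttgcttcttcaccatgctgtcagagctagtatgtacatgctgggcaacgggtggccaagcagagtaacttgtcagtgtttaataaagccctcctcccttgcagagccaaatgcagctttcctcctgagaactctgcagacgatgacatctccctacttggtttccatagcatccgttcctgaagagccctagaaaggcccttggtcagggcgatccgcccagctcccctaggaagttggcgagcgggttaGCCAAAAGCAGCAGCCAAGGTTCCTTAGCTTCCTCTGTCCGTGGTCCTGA
Slc17a6, chr7:51624387-51624686: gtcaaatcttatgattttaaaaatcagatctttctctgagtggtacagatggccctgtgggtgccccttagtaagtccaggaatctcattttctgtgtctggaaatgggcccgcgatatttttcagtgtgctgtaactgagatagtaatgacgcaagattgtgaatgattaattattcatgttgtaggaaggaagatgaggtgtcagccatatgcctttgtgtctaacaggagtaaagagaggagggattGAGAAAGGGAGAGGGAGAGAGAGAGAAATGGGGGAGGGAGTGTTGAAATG
The GC content of these windows was 63.7% for Slc17a7, and 53.7% and 43.0% for the starts of Slc17a6. The other pair belongs to Tbr1, a T-box factor of cortical neurons, and to Mobp, a myelin protein gene. Capitals mark TAATTA, the core bound by many homeodomain factors, in Tbr1. In Mobp they mark ACAAAG, a core bound by SOX factors, on either strand.
Tbr1, chr2:61804203-61804502: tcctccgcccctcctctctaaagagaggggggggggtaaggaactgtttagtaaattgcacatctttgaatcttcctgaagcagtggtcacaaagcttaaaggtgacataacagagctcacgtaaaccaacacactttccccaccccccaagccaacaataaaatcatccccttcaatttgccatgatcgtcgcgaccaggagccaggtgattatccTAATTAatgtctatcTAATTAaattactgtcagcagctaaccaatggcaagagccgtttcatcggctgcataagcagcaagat
Mobp, chr9:120149492-120149791: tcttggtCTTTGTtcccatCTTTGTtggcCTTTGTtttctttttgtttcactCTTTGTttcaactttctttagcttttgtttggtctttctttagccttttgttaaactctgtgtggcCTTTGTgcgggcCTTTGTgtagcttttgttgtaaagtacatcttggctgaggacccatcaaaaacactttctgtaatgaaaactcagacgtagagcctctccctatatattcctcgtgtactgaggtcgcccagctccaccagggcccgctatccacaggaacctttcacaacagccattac
Both strands were searched, and TAATTA reads the same on both. It occurred 2 times in the window of Tbr1, against at least 2 times in 0.49% and at least 1 time in 5.29% of 32851 mouse promoters of the same length. ACAAAG occurred 6 times in the window of Mobp, all on the minus strand as the printed CTTTGT. It occurred at least 1 time in 18.7% and at least 2 times in 2.37% of promoters, and Mobp was the 1 promoter that held it at least 6 times. ACAAAG also occurred 1 time in the window of Tbr1. The second window of Slc17a6, a gene lower in cortex, held TAATTA 1 time and ACAAAG 1 time, which are not marked. These matches are a description of the letters and do not show that a factor binds there. In all, 88 of the 124 genes named in the analysis had a window in this annotation.

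Of the 735 genes tested in sham pups, 318 passed (43.3%), 150 of them higher (20.4% of all tested) and 168 lower (22.9%) in cortex than in striatum/thalamus. The test was the quasi-likelihood F test of edgeR with the pup as a block, at an adjusted p under 0.05. In 287 of the 318 the 4 cortex libraries did not overlap the 4 striatum/thalamus libraries, which was so for 42.2% of all genes tested. Most differences were small: the median absolute log2 fold change of the genes that passed was 0.48, and 26 genes were at least 2-fold higher and 26 at least 2-fold lower in cortex. Scaling to the 13 reference genes moved the median of all genes from -0.012 to -0.112, so that 90 genes were called higher and 224 lower in cortex, and 258 of the 318 genes passed under both scalings.

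**Figure D1:**
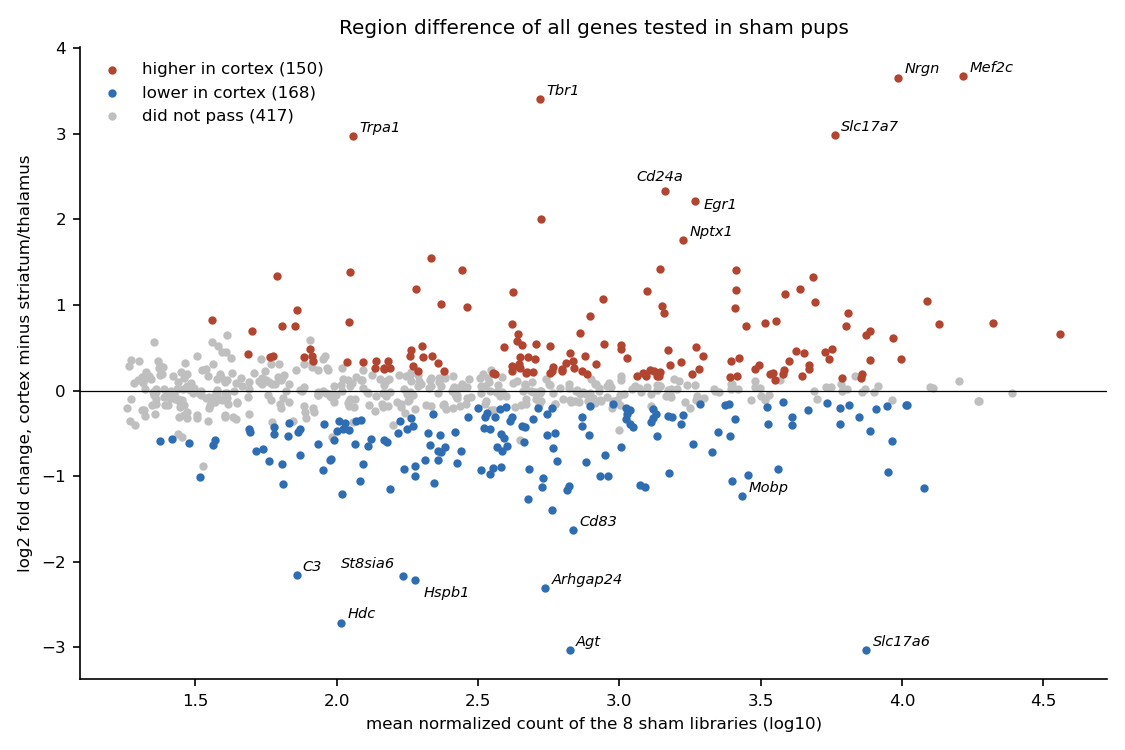
Log2 fold change (cortex minus striatum/thalamus, y axis) against the mean normalized count of the 8 sham libraries (log10, x axis), 1 point per gene tested. The 150 genes higher and 168 genes lower in cortex are colored, and Mef2c, Nrgn, Tbr1, Slc17a7 and Trpa1 lie at the upper edge and Slc17a6, Agt and Hdc at the lower edge.

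Genes of cortical excitatory neurons had the highest median of any list. Of the 6 tested genes of the list of glutamatergic neurons of cortical lineage, 5 were higher in cortex and none lower, with a median log2 fold change of 3.20 against -0.01 over all genes tested. The share over all genes tested was 20.4% higher and 22.9% lower. Slc17a7, which encodes VGLUT1, had 8696, 11153, 10375 and 10857 normalized counts in the cortex of pups 2, 3, 6 and 8, against 1204, 1429, 1354 and 1177 in their striatum/thalamus (log2 fold change 2.99, SE 0.066, adjusted p = 2.48e-07). Every cortex library was above every striatum/thalamus library, and the mean was 7.94-fold higher. Tbr1, which specifies deep-layer cortical neurons, had 948, 959.8, 848 and 1072 normalized counts in cortex, against 88.6, 101, 67.8 and 104 in striatum/thalamus (log2 fold change 3.41, SE 0.079, adjusted p = 2.48e-07). Its striatum/thalamus libraries were above background but lay far below any cortex library.

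Mef2c, a transcription factor of maturing excitatory neurons, was the gene with the largest fold, with 28237, 29176, 23612 and 41100.3 normalized counts in cortex, against 1892, 2933, 2446 and 2179.8 in striatum/thalamus (log2 fold change 3.68, SE 0.17, adjusted p = 6.79e-06). The highest cortex library, that of pup 8, did not have the highest striatum/thalamus library beside it. Nrgn, a calmodulin-binding protein of dendritic spines, had 16949, 17584, 14421 and 22724 normalized counts in cortex, against 1210.0, 1945, 1284 and 1265 in striatum/thalamus (log2 fold change 3.66, SE 0.16, adjusted p = 6.38e-06). Nptx1, a secreted pentraxin that clusters AMPA receptors, was 3.38-fold higher in cortex, with 2482 to 2700.4 normalized counts in cortex and 679 to 870.5 in striatum/thalamus. Eomes, a factor of intermediate cortical progenitors, did not pass and was near background, with 58.7, 69.1, 28.9 and 43.4 normalized counts in cortex, against 40.1, 18.9, 28.2 and 39.4 in striatum/thalamus (log2 0.65, SE 0.28). These samples are bulk tissue, so more cells of a type and more RNA per cell cannot be told apart.

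Slc17a6, which encodes VGLUT2 and was the only measured gene of the list of 10 genes for subcortical and thalamic glutamatergic neurons, had the opposite pattern. It had 988, 1873, 2311 and 1565 normalized counts in the cortex of pups 2, 3, 6 and 8, against 11882, 13408, 14219 and 13593 in striatum/thalamus (log2 fold change -3.04, SE 0.15, adjusted p = 7.86e-06). The striatum/thalamus was 8.2-fold higher on the fitted scale, and the cortex libraries varied more between pups than those of striatum/thalamus did in proportion to their mean. Together with Tbr1 and Slc17a7, these values stand on the side of the labelled regions, with the cortical genes high in all 4 cortex libraries and the thalamic gene high in all 4 striatum/thalamus libraries.

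For the striatum this check could not be made, because no more than 1 of the 20 genes on the list of striatal and GABAergic projection neurons was among the genes measured. Dlx1 and Dlx2, homeobox factors of GABAergic precursors that were picked after their values were seen, did not pass (-0.00 for Dlx1, SE 0.13, and 0.37 for Dlx2, SE 0.22, both on the log2 scale). Without pup 8 the value of Dlx2 was 0.649 and it passed as higher in cortex (adjusted p = 0.0216).

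**Figure D2:**
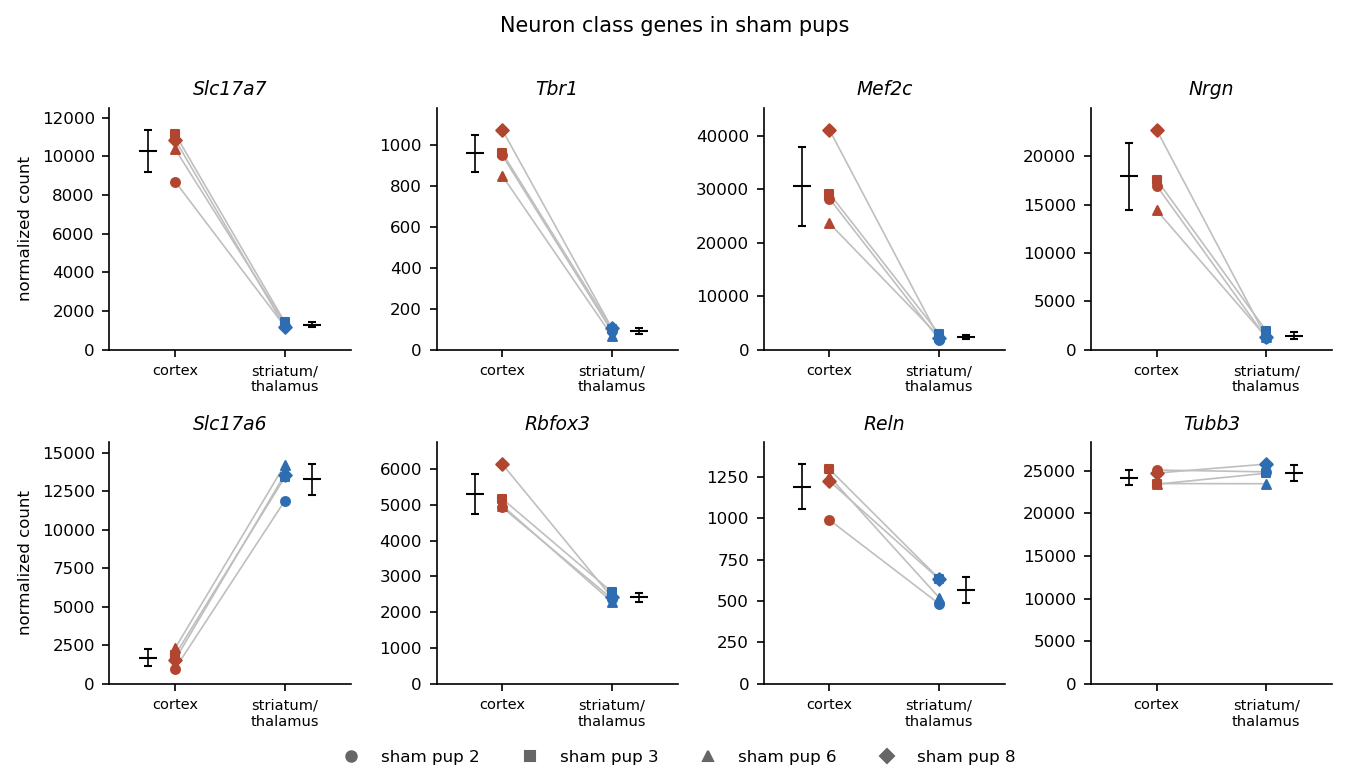
Normalized counts (y axes, from 0) of 8 neuronal genes in the cortex (red) and striatum/thalamus (blue) of each sham pup, with gray lines joining the libraries of a pup and black marks for the mean ± SD of 4 pups. Slc17a7, Tbr1, Mef2c, Nrgn, Rbfox3 and Reln are higher in every cortex library, Slc17a6 is higher in every striatum/thalamus library and Tubb3 overlaps.

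Pan-neuronal genes differed in both directions. Of the 10 tested, 5 were higher and 1 lower in cortex, with a median log2 fold change of 0.16. Over all genes tested, 20.4% were higher and 22.9% lower. Rbfox3, the RNA-binding protein known as NeuN, had 4929, 5171, 4982 and 6141 normalized counts in cortex, against 2378, 2566, 2292 and 2415 in striatum/thalamus (log2 fold change 1.13, SE 0.062, adjusted p = 1.1e-05), with no overlap between the regions. Islr2, a membrane protein of growing axons, was 2.67-fold higher (log2 1.42, SE 0.044), Mapt, which encodes tau, 1.36-fold and Fgf13, an intracellular regulator of sodium channels, 1.1-fold, a call that was lost without pup 3 (adjusted p = 0.0674) and on reference-gene scaling (adjusted p = 0.523).

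Nefl, the light neurofilament chain of large axons, went the other way, with 1491, 1732, 1414 and 1805 normalized counts in cortex, against 2672, 2802, 2511 and 2549.7 in striatum/thalamus (log2 fold change -0.71, SE 0.064, adjusted p = 0.000117). All 4 pups were lower in cortex. The remaining pan-neuronal genes did not pass: Tubb3, the neuronal tubulin, had 25077, 23415, 23491 and 24722 normalized counts in cortex, against 24864, 24699.9, 23469 and 25776 in striatum/thalamus, and Syp, Syn2 and Pacsin1, proteins of synaptic vesicles and their recycling, had log2 fold changes of 0.04, 0.17 and -0.06. On reference-gene scaling 4 of the 10 were higher and 3 lower, with Tubb3 (-0.131, adjusted p = 0.048) and Pacsin1 (-0.162, adjusted p = 0.0417) now lower in cortex and the sign of Syp turned. Syn2 passed without pup 8 (0.29, adjusted p = 0.0236), and the sign of Tubb3 turned in a fit of all 24 libraries.

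Both measured genes of the list of 16 for interneurons and modulatory neurons were higher in cortex. Reln, the glycoprotein secreted by Cajal-Retzius cells and some interneurons, had 989, 1295, 1251 and 1224 normalized counts in cortex, against 483, 635, 521 and 633 in striatum/thalamus (log2 fold change 1.07, SE 0.063, adjusted p = 1.48e-05). Kit, a receptor tyrosine kinase of some interneurons and of mast cells, had 270.0, 446, 444 and 384 normalized counts in cortex, against 202, 219, 168 and 184 in striatum/thalamus (log2 fold change 0.98, SE 0.14, adjusted p = 0.00138). Pnoc, the precursor of the neuropeptide nociceptin, was lower in cortex (57.6 to 71.2, against 131 to 156 in striatum/thalamus, log2 -1.20, SE 0.10).

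Glutamate receptors and their scaffold were mostly higher in cortex, 8 of 11 genes tested, with 2 lower and a median log2 fold change of 0.81. Among all genes tested, 20.4% were higher and 22.9% lower. Grin2a and Grin2b encode NMDA receptor subunits. Grin2a had 415, 448, 299 and 449 normalized counts in cortex, against 150.2, 178, 135 and 142 in striatum/thalamus (log2 fold change 1.41, SE 0.094, adjusted p = 2.26e-05), and Grin2b was 2.06-fold higher with 6366 to 6774 normalized counts in cortex and 2964 to 3449 in striatum/thalamus. The scaffold genes Homer1 and Dlg4, which encodes PSD-95, were 2.65-fold and 1.88-fold higher. The members lower in cortex were Gria4, an AMPA receptor subunit, with 2290.0, 2750.2, 2778 and 2306 normalized counts in cortex, against 4847, 4978, 4713 and 4532 in striatum/thalamus (log2 fold change -0.92, SE 0.059, adjusted p = 1.94e-05), and the scaffold gene Shank3, which was picked after its values were seen (1916 to 2255 normalized counts in cortex and 2888 to 2939.8 in striatum/thalamus, log2 -0.53, SE 0.053). The 8 higher and 2 lower calls were the count also without any 1 pup and on reference-gene scaling.

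Among activity-dependent genes, which neurons switch on when they fire, 5 of 11 were higher and 1 lower in cortex, with a median log2 fold change of 0.10 (-0.00 on reference-gene scaling). Over all genes tested, 20.4% were higher and 22.9% lower. No member was lower without pup 2 or without pup 6. Egr1, an immediate early zinc finger factor, had 3426, 2537, 2439 and 3860.4 normalized counts in cortex, against 606, 719.7, 667 and 597 in striatum/thalamus (log2 fold change 2.22, SE 0.15, adjusted p = 2.77e-05). Arc, which removes AMPA receptors from synapses, had 266 to 372 normalized counts in cortex and 129 to 180.5 in striatum/thalamus (log2 1.01, SE 0.15), while Ptgs2, which encodes cyclooxygenase-2, had 52.1 to 131 in cortex but was at 28.9 to 40.7 in striatum/thalamus, not above background in any of the 4 libraries. Homer1 and Nptx1, given above, are the other members that were higher. Fos, named after its values were seen, did not pass, with 404, 270.4, 302 and 451 normalized counts in cortex, against 294, 233, 431 and 379 in striatum/thalamus (log2 0.10, SE 0.15), so the groups overlapped. Without pup 6 its value was 0.334 and it passed (adjusted p = 0.0212).

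Calcium signaling genes split, with 10 of 17 higher and 5 lower in cortex (7 and 6 on reference-gene scaling) and a median of 0.20. Among all genes tested, 20.4% were higher and 22.9% lower. Besides Nrgn, the smallest p-values belonged to Prkce, a protein kinase C isoform, Ppp3ca, the catalytic subunit of calcineurin, and Camk4, a calmodulin-dependent kinase. Ppp3ca had 16438, 16628, 16867 and 15941 normalized counts in cortex, against 7606, 8829.6, 7777 and 7826 in striatum/thalamus (log2 fold change 1.04, SE 0.049, adjusted p = 6.79e-06), Prkce was 2.28-fold and Camk4 1.69-fold higher. Of genes outside the lists, picked after their values were seen, the insulin and growth factor pathway genes Pik3r2 and Akt2 were 1.96-fold and 1.72-fold higher in cortex.

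Other genes far higher in cortex came from several classes. Trpa1, a cation channel, had 159, 203, 145 and 306 normalized counts in cortex, against 21.5, 34.7, 20.9 and 24.3 in striatum/thalamus (log2 fold change 2.98, SE 0.18, adjusted p = 1.48e-05), where only 1 of 4 libraries was above background, so background pulls its fold toward 1. Cd24a, a surface glycoprotein of immature neurons, had 2798, 2345, 1840.2 and 2750.0 normalized counts in cortex, against 449.7, 572, 418 and 484 in striatum/thalamus (log2 fold change 2.33, SE 0.10, adjusted p = 6.79e-06). Casp1, the inflammasome protease, had 96.0 to 222 normalized counts in cortex and 49.6 to 68.7 in striatum/thalamus (log2 1.39, SE 0.23).

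Oligodendrocyte genes were lower in cortex as a group. All 5 tested genes of differentiating oligodendrocytes and 14 of 16 myelin genes were lower and none higher, with medians of -1.02 and -0.94. Over all genes tested, 20.4% were higher and 22.9% lower. Cnp, an enzyme of the myelin sheath, had 6021, 5504, 5823 and 6914 normalized counts in the cortex of pups 2, 3, 6 and 8, against 12508, 12286, 13629.8 and 8902 in striatum/thalamus (log2 fold change -0.95, SE 0.14, adjusted p = 0.00116). Mobp had 1483, 1349, 1456 and 2184 normalized counts in cortex, against 3707, 4181, 4813 and 2565 in striatum/thalamus (log2 fold change -1.23, SE 0.23, adjusted p = 0.00429). In both genes the regions did not overlap, yet pup 8 had the highest cortex and the lowest striatum/thalamus value.

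Over the 16 myelin genes the median log2 ratio of cortex to striatum/thalamus was -1.04, -1.18 and -1.23 in pups 2, 3 and 6 and -0.30 in pup 8. The summed normalized counts of these genes were 17269 to 24364 in cortex and 29694 to 49844 in striatum/thalamus. Without any 1 pup, 11 to 15 of the 16 were lower, and the call of Mobp was lost without pup 3 (adjusted p = 0.0554). Gsn, an actin-severing protein, and Ninj2, an adhesion protein at background in all 8 libraries, were the 2 that did not pass (-0.46 and 0.22). Without pup 8 the value of Gsn was -0.763 and it passed (adjusted p = 0.00373).

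The transcription factors of the lineage were also lower in the cortex of every pup. Sox10, a factor of the oligodendrocyte lineage, had 347, 311, 348 and 315 normalized counts in cortex, against 696, 635, 649 and 522 in striatum/thalamus (log2 fold change -0.92, SE 0.069, adjusted p = 4.6e-05). Myrf, which starts the myelin program, had 416, 357, 388 and 449 normalized counts in cortex, against 908, 965, 1048 and 710.4 in striatum/thalamus (log2 fold change -1.16, SE 0.13, adjusted p = 0.000327). Bcas1 and Enpp6, which mark newly formed oligodendrocytes, were 2.08-fold and 2.02-fold higher in striatum/thalamus. In the myelin list the smallest p-values belonged to Plekhb1, Gal3st1, an enzyme of the myelin lipid sulfatide, Tmem88b and Cnp, and the first 3 were 1.54-fold, 1.91-fold and 2-fold higher in striatum/thalamus. No gene of the lists of 10 for oligodendrocyte precursors and 19 for mural cells and fibroblasts was among those measured.

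**Figure D3:**
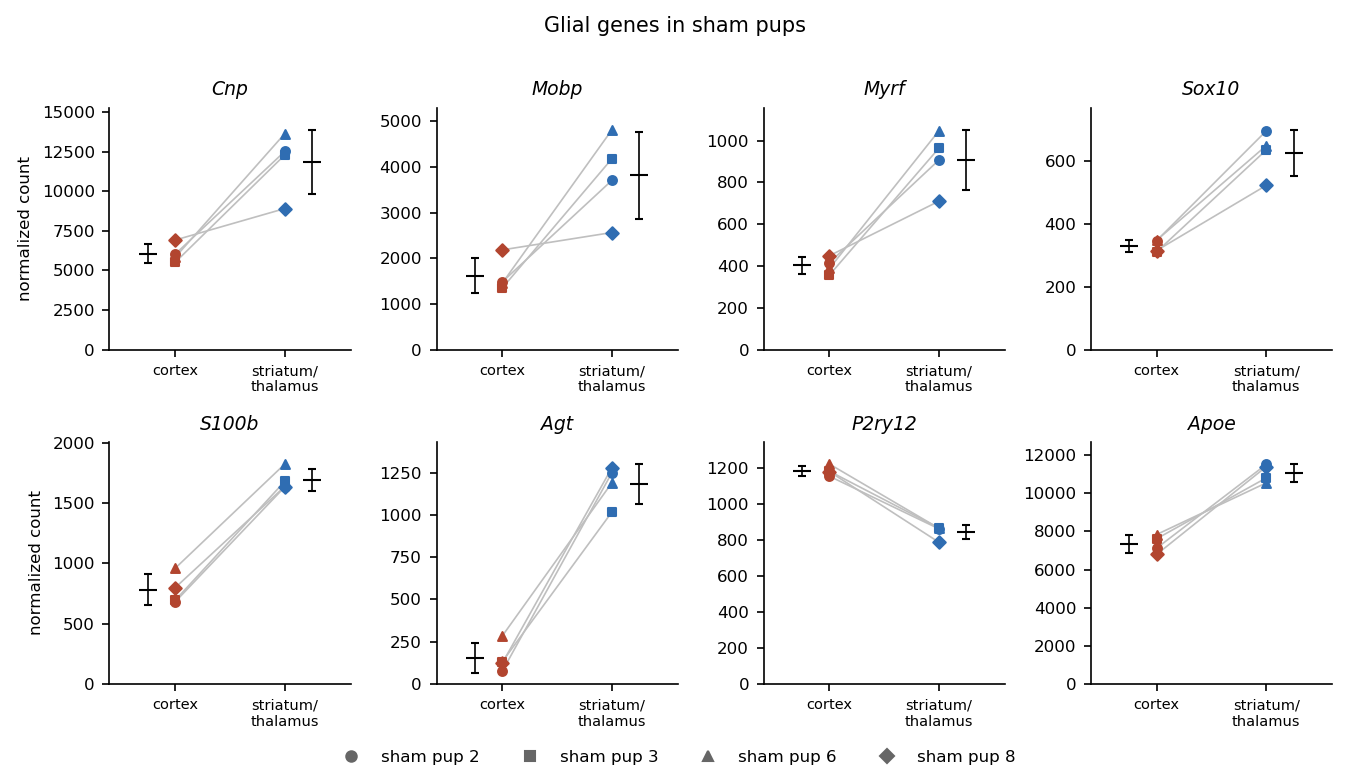
Normalized counts (y axes, from 0) of 8 glial genes in the cortex (red) and striatum/thalamus (blue) of each sham pup, with gray lines joining the libraries of a pup and black marks for the mean ± SD of 4 pups. Cnp, Mobp, Myrf, Sox10, S100b, Agt and Apoe are lower in every cortex library and P2ry12 is higher, and the lines of pup 8 are the flattest for Cnp and Mobp.

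Astrocyte genes were more often lower than higher in cortex, 5 against 1 of 9 tested, with a median of -0.30. The share over all genes tested was 20.4% higher and 22.9% lower. Agt, angiotensinogen, which astrocytes secrete, had 74.7, 131, 283 and 122 normalized counts in cortex, against 1249, 1016, 1189.7 and 1278 in striatum/thalamus (log2 fold change -3.03, SE 0.28, adjusted p = 0.000125), and all cortex libraries were far below those of striatum/thalamus. S100b, a calcium-binding protein of astrocytes and some oligodendrocyte lineage cells, had 679.8, 692, 958 and 797 normalized counts in cortex, against 1634, 1679.6, 1823 and 1637 in striatum/thalamus (log2 fold change -1.12, SE 0.070, adjusted p = 1.75e-05). Kcnj10, the Kir4.1 potassium channel of glia, was 1.98-fold and Aldh1l1, an enzyme of folate metabolism, 1.25-fold higher in striatum/thalamus. Slc1a3, the glutamate transporter GLAST, picked after its values were seen, was the member higher in cortex (10136 to 12312 normalized counts in cortex and 7793 to 9375 in striatum/thalamus), a call lost without pup 3 (adjusted p = 0.0975) and on reference-gene scaling (adjusted p = 0.0861).

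Genes of reactive astrocytes, which in injured brain mark astrocyte activation, were 4 higher and 4 lower of 30 tested, with a median of 0.03 (-0.07 on reference-gene scaling). Of all genes tested, 20.4% were higher and 22.9% lower, and 5 of the 30 were not above background in any library. The lower group held Hspb1, a small heat shock protein, with 73.6, 63.0, 67.5 and 64.0 normalized counts in cortex, against 258, 299.8, 325 and 368 in striatum/thalamus (log2 fold change -2.21, SE 0.12, adjusted p = 1.1e-05), and Amigo2, an adhesion protein (256 to 369, against 781 to 855 in striatum/thalamus, log2 -1.39, SE 0.11). The higher group held S100a10, an annexin partner (2.24-fold), and Ptx3, a soluble pentraxin (1.93-fold). The regions did not overlap in any of these 4 genes, which were named for their small p, as in 42.2% of all genes tested.

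Microglial genes split by list. Of 26 genes of homeostatic microglia 17 were higher and 1 lower in cortex, with a median of 0.24, and of 13 genes of activated and developmental microglia 7 were lower and none higher, with a median of -0.31. The share over all genes tested was 20.4% higher and 22.9% lower. In the second list 4 of the 13 were not above background in any library and could not show a difference. P2ry12, the purinergic receptor of surveying microglia, had 1154, 1181, 1221 and 1179 normalized counts in cortex, against 861, 866, 864 and 786 in striatum/thalamus (log2 fold change 0.49, SE 0.049, adjusted p = 0.000202). Tmem119, a microglial membrane protein, was 1.43-fold and Cx3cr1, the fractalkine receptor, 1.3-fold higher. The member that was lower was Lgmn, a lysosomal protease (3635 ± 119.7 normalized counts in cortex and 4504 ± 105 in striatum/thalamus, log2 -0.31, SE 0.038). On reference-gene scaling 6 of the 26 were higher and 1 lower, with a median of 0.14 beside -0.11 for all genes. Without pups 2, 3, 6 and 8 in turn, 11, 12, 14 and 11 were higher and 1 lower.

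In the other list, Apoe, the lipid carrier that astrocytes also make, had 7119.8, 7616, 7836 and 6791 normalized counts in cortex, against 11518, 10808, 10548 and 11399 in striatum/thalamus (log2 fold change -0.59, SE 0.062, adjusted p = 0.000244). Igf1, insulin-like growth factor 1, was 1.74-fold higher in striatum/thalamus, Axl, a receptor for dying cells, 1.24-fold and Csf1, a growth factor for microglia, 1.24-fold. Their 7 lower calls were also the count on reference-gene scaling, and 5 or 6 without any 1 pup. Several of these genes are also made by other glia or neurons, so they are not specific to microglia. Cx3cl1, the fractalkine that neurons present to microglia, was 1.87-fold higher in cortex (log2 0.90, SE 0.083), and the receptor Csf1r 1.32-fold.

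Complement genes differed by component. The C1q chains C1qa, C1qb and C1qc, made by microglia, were 1.17-fold, 1.17-fold and 1.18-fold higher in cortex, and none of them passed on reference-gene scaling (adjusted p of 0.136 to 0.173). The calls of C1qa and C1qc were also lost without pup 3, and that of C1qa without pup 2. C3, the central component, had 24.5, 26.4, 34.7 and 19.7 normalized counts in cortex, where 1 of 4 libraries was above background, against 114, 117, 112 and 129 in striatum/thalamus (log2 fold change -2.16, SE 0.17, adjusted p = 5.01e-05). In all, 4 of 10 complement genes were higher and 1 lower, none and 1 on reference-gene scaling, and 2 and 1 without pup 2 or pup 3. Of all genes tested, 20.4% were higher and 22.9% lower.

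Markers of vessels, border macrophages, blood cells and choroid plexus were examined next, beside 20.4% higher and 22.9% lower of all genes tested. Of 10 endothelial genes 2 were lower and none higher, with a median of 0.03 (-0.07 on reference-gene scaling). The 2 were Slc2a1, the glucose transporter GLUT1 (-0.22), and Ly6a, a surface antigen of vessels (-0.47), and both calls were lost without pup 2, without pup 3 and under DESeq2, and that of Slc2a1 also without pup 6 or pup 8. Of 6 genes of border macrophages and monocytes 1 was lower (Dab2, an endocytic adaptor, -0.35, a call lost with DESeq2 and without pup 2, 3 or 6), and of 14 lymphocyte genes 1, the neuropeptide gene Pnoc named above, but 11 of these 14 were not above background in any library and could not show a difference. Ttr, the transthyretin of choroid plexus, had 230.5, 803, 109.9 and 202 normalized counts in the cortex of pups 2, 3, 6 and 8, against 80.2, 72.5, 74.1 and 152 in striatum/thalamus (log2 fold change 1.55, SE 0.47, adjusted p = 0.0338), so the regions overlapped and the cortex of pup 3 stood apart. Without pup 3 its log2 fold change was 0.84 and the call was lost (adjusted p = 0.0597). The call of Ttr was also lost without pup 2 (adjusted p = 0.109), with DESeq2, on reference-gene scaling and in a fit of all 24 libraries. Hdc, the enzyme that makes histamine in mast cells and in hypothalamic neurons, had 25.6, 27.5, 34.7 and 19.7 normalized counts in cortex, near background, against 188, 267, 168 and 99.0 in striatum/thalamus (log2 fold change -2.71, SE 0.18, adjusted p = 1.99e-05).

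The remaining large differences among the genes lower in cortex were Arhgap24, a Rac-directed GTPase-activating protein, St8sia6, a sialyltransferase, Cd83, an immunoglobulin-family surface protein, Gdpd2, a phosphodiesterase of membrane lipids, and Tspan18, a tetraspanin. Arhgap24 had 163, 199, 223 and 152 normalized counts in cortex, against 927, 898, 854 and 963 in striatum/thalamus (log2 fold change -2.31, SE 0.12, adjusted p = 1.08e-05). Cd83 had 349, 320.3, 324 and 346 normalized counts in cortex, against 1036, 1042, 1048 and 1017 in striatum/thalamus (log2 fold change -1.63, SE 0.055, adjusted p = 1.46e-06), with little spread in either region. St8sia6, Gdpd2 and Tspan18 were 4.49-fold, 2.41-fold and 2.22-fold higher in striatum/thalamus. In all 5 genes, which were named for their large change, the regions did not overlap, as in 42.2% of all genes tested.

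Stress and metabolic lists divided within themselves, beside 20.4% higher and 22.9% lower of all genes tested. Of 11 genes of oxidative stress and NRF2 targets 1 was higher and 6 lower in cortex, with a median of -0.15 (4 lower without pup 3 or pup 6, and none higher on reference-gene scaling). Srxn1, which repairs oxidized peroxiredoxins, had 969, 994, 1146 and 970.5 normalized counts in cortex, against 1969, 2032, 1999.6 and 1947 in striatum/thalamus (log2 fold change -0.96, SE 0.054, adjusted p = 1.13e-05), and Gstm1, Nqo1 and Hmox1, which encode detoxifying enzymes, were 1.75-fold, 1.52-fold and 1.55-fold higher in striatum/thalamus. Of 10 hypoxia targets 2 were higher and 4 lower, and 2 and 1 without pup 2, pup 3 or pup 6. Ldha, lactate dehydrogenase A, had 9227, 9767, 9348 and 9808 normalized counts in cortex, against 5778, 6138, 5613 and 5929 in striatum/thalamus (log2 fold change 0.70, SE 0.039, adjusted p = 1.13e-05), and Ccng2, an atypical cyclin, was 1.82-fold higher.

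Genes of cell cycle and DNA replication were 5 higher and 8 lower of 37 (3 and 13 on reference-gene scaling), with a median of -0.05. The share over all genes tested, for this list and the next, was 20.4% higher and 22.9% lower. E2f1, a factor of S-phase entry, was 2.27-fold higher in cortex (238 to 293, against 105 to 127 in striatum/thalamus), while Cdkn1a, the cell cycle inhibitor p21, was 1.99-fold and Lig1, a replicative DNA ligase, 1.58-fold higher in striatum/thalamus. H2afx, a histone variant phosphorylated at DNA breaks, was 1.32-fold higher in cortex. DNA damage genes were 6 higher and 4 lower of 29, but 2 and 7 on reference-gene scaling, 4 and 1 without pup 2, 2 and 2 without pup 3, and 4 and 2 without pup 6 or pup 8. Besides H2afx, the smallest p-values belonged to Hus1, a checkpoint clamp subunit (-0.60), and Rad50, a break sensor (0.41).

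In apoptosis and necroptosis 9 of 36 genes were higher and 7 lower in cortex, with a median of 0.02, beside 20.4% higher and 22.9% lower of all genes tested. The counts were 5 and 8 on reference-gene scaling and 6 and 4 without pup 2 or pup 3. Besides Casp1, the smallest p-values belonged to Xiap, an inhibitor of caspases (-0.40), Bok (-0.42) and Bax (0.32), both members of the BCL2 family. Signaling by NF-kappaB and Toll-like receptors had 2 higher and 5 lower of 25 (none and 4 without pup 3, 2 and 3 without pup 6, and 1 and 5 on reference-gene scaling), with Nfkb1 (-0.43), Traf3 (-0.54) and Irak4 (-0.46) lower and Ripk2 higher (0.47). The call of Ripk2 was lost without pup 3 (adjusted p = 0.0523). Interferon genes had 3 higher and 1 lower of 20 (2 and 2 on reference-gene scaling), with Ifih1, a sensor of viral RNA, 1.75-fold higher and Irf3, a regulator of interferon genes, 1.36-fold higher in striatum/thalamus. These 3 lists had medians of 0.02, -0.00 and -0.00, and -0.08, -0.11 and -0.10 on reference-gene scaling, close to those of all genes.

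Chromatin regulators had 10 higher and 6 lower of 51, but 5 and 13 on reference-gene scaling, and 8 and 4 without pup 2. For this list and those that follow, the share over all genes tested was 20.4% higher and 22.9% lower. The smallest p-values belonged to Hdac4, a deacetylase that restrains MEF2 factors (0.58), Ncor1, a corepressor (0.33), Smarca5, a nucleosome remodeler (-0.33), and Hdac6, a tubulin deacetylase (-0.52). Autophagy and lysosome genes had 4 higher and 2 lower of 20 (none and 5 on reference-gene scaling, 1 and 1 without pup 2 or pup 3, and 3 and 1 without pup 8), all with small changes such as Becn1 (0.20) and Lamp1 (-0.22). Growth factor signaling had 3 higher and 3 lower of 13 (1 and 6 on reference-gene scaling, 1 and 2 without pup 2, 2 and 2 without pup 3, and 1 and 5 without pup 8), with Igf1r (0.37) higher and Ngfr, the low-affinity neurotrophin receptor (-1.09, a call lost without pup 2 or 3), lower in cortex. Chemokines and cytokines had 3 higher and 7 lower of 35, of which 7 were not above background in any library, and the lower ones were 3, 2 and 4 without pups 3, 6 and 8. Genes linked to neurodegeneration had 4 higher and 2 lower of 9 (2 and 2 on reference-gene scaling and without pup 2 or pup 8), the lower ones including Optn, an autophagy receptor (-0.67).

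**Figure D4:**
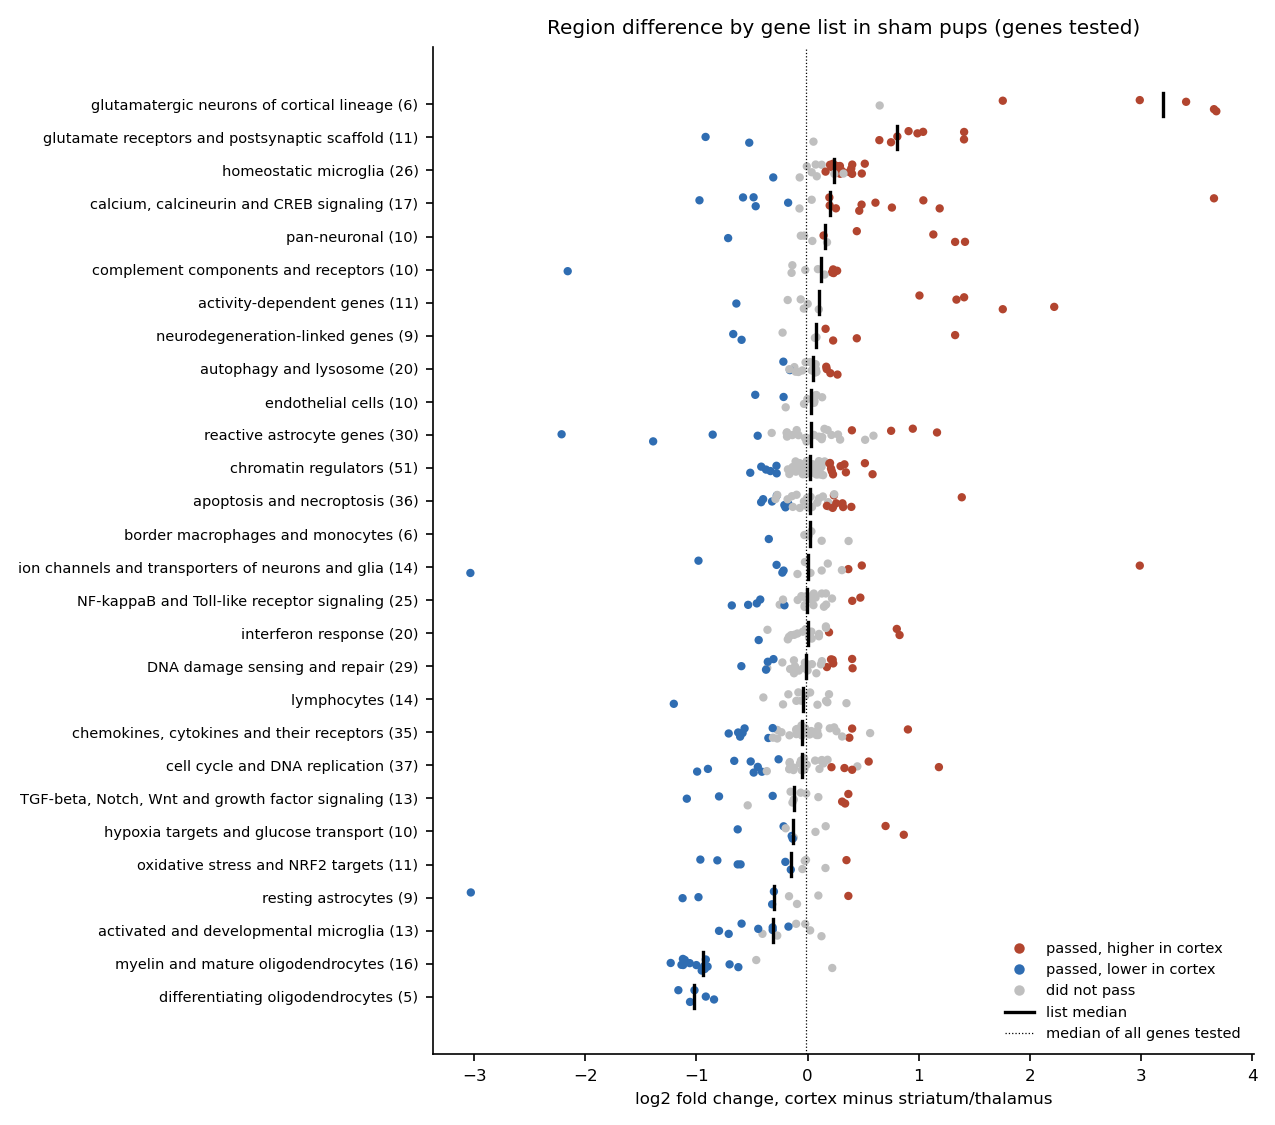
Log2 fold change in sham pups (cortex minus striatum/thalamus, x axis) of each tested gene of the lists with at least 5 tested genes (y axis, number tested in brackets), with black bars for list medians and a dotted line for the median of all genes. Cortical glutamatergic genes have the highest median (3.20) and both oligodendrocyte lists the lowest (-1.02 and -0.94).

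The same region difference was tested in the 4 HIBI pups, which share no library with the sham pups but carry the injury. Of 726 genes 221 passed (30.4%), 117 higher and 104 lower in cortex, and the count was 130 without pup 5 and 141 without pup 7. Of the 318 genes that passed in sham pups, 188 passed in the same direction in HIBI pups, which is 59.1% of the sham calls and 85.1% of the HIBI calls. None passed in the opposite direction, and 305 had the same sign. Slc17a7 had a log2 fold change of 3.32 in HIBI pups, Mef2c 3.78, Tbr1 2.88, Slc17a6 -2.75 and Agt -2.83, all past the threshold.

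In HIBI pups 2 of the 16 myelin genes were lower in cortex and none higher, with a median of -0.35, where sham pups had 14 lower and a median of -0.94. Their median log2 ratio was -0.14, -1.44, -0.08 and 0.23 in HIBI pups 1, 4, 5 and 7. In HIBI pups the log2 fold change of Cnp was -0.45 (SE 0.22) and that of Mobp -0.29 (SE 0.40), with adjusted p of 0.16 and 0.617. The difference from sham pups did not pass for any of these genes, with the lowest adjusted p at 0.614. Of the 11 activity-dependent genes 8 were higher and none lower in HIBI cortex, with a median of 0.92, and here too no member's difference from sham pups passed (lowest adjusted p 0.525).

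No gene passed the edgeR test of whether its region difference differed between HIBI and sham pups, over 745 genes (0 passed, 59 with an unadjusted p under 0.05, lowest adjusted p 0.291). The 5 smallest p-values belonged to Islr2 (HIBI minus sham -0.70 on the log2 scale), Hspb1 (0.97), Tnfrsf1a, the main receptor of TNF (-0.44), Tbr1 (-0.58) and Eomes (-1.67). For Islr2 the region difference was 0.77 in HIBI pups and 1.42 in sham pups, and for Hspb1 it was -1.20 in HIBI pups and -2.21 in sham pups. With 4 pups in each arm, a p that misses the threshold does not show that these differences were equal.

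**Figure D5:**
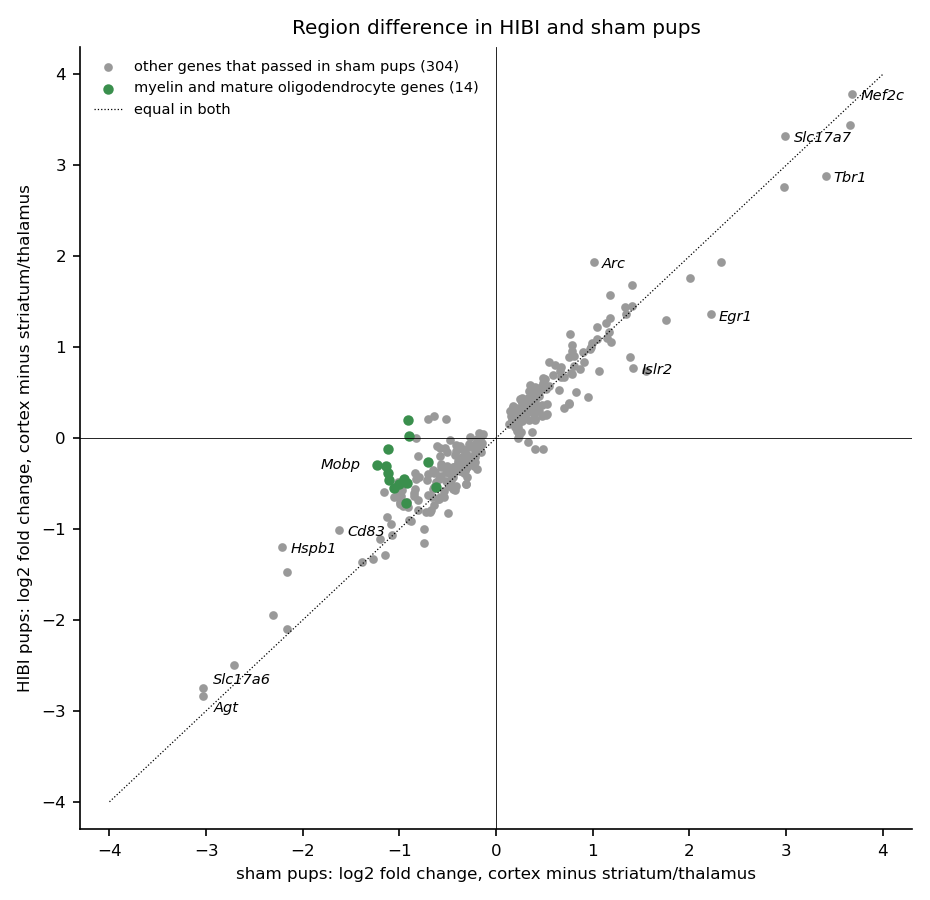
Log2 fold change (cortex minus striatum/thalamus) in HIBI pups (y axis) against that in sham pups (x axis) for the 318 genes that passed in sham pups, with the 14 myelin genes in green and a dotted line where both are equal. The 305 genes with the same sign lie in the upper right and lower left, and the green points lie above the line, nearer 0 in HIBI pups.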

How the data were processed

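RNA of the right cortex and right striatum/thalamus was counted on the nCounter Mouse Neuroinflammation panel. The deposited per-sample values were raw counts of barcodes per probe, not normalized by the authors, for 757 endogenous and 13 reference genes, with 8 negative and 6 positive control probes. The other information used from the authors' deposited table was the class and the accession of each probe. Its remaining columns hold the authors' group means, their SDs, ratios and p-values of HIBI against control, and were not used.

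Counts were tested in R 4.3.3 with edgeR 4.0.16 (quasi-likelihood F test, two-sided, TMM scaling, pup as a fixed block) on genes that reached 20 counts in 4 or more of the 8 libraries. P-values were Benjamini-Hochberg adjusted over all genes tested, with 0.05 as the threshold. Log2 fold changes are cortex minus striatum/thalamus with their standard error (SE), and no background was subtracted. Libraries were taken as above background for a gene where its count exceeded the negative control mean plus 2 SD. HIBI pups were fitted alone in the same way, and the difference between arms was the interaction term of a fit of all 16 libraries. The pairing comes from the subject number, since both regions of a number are 1 animal. Deviations of same-numbered libraries from their group means correlated at 0.077, 0.067, 0.11 and -0.033 over 671 genes. Those of different numbers correlated at -0.164 to 0.116, so these correlations do not separate same from different pups.

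Members and gene lists were chosen with earlier results of these data known, so no list is independent evidence. Named are the 15 genes with the largest change in each direction, every measured member of the neuron class lists, up to 4 members by smallest p of other lists and up to 5 genes for the difference between arms. A few genes that this rule names are not reported here. Genes picked after their values were seen are called so, and Uty was 1 of them. Of 735 genes tested, 722 matched the mouse RefSeq table by accession, 715 of them with the same symbol. Libraries of a group correlated at 0.988 to 0.994 across genes, and all pairs differed by more than counting error. Recovery of changed genes was tested on simulated data. Alternatives were DESeq2 1.42.0, limma-voom (limma 3.58.1), reference-gene scaling, other filters, background subtraction, a fit of all 24 libraries, a minimum fold of 1.5, no block and leaving out each pup.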

Additional observations from a re-analysis of the deposited data

Results flagged for a closer look

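In groups of 4 libraries, 1 library lay far from the other 3 in 17 of 248 groups of the named genes, where chance alone gives about 1 in 20 (12.4). The 17 include Uty in both regions, a gene picked after its values were seen. The 17 therefore cannot be weighed against the 12.4. In the cortex, Mobp was at 2184 normalized counts in pup 8, against 1349 to 1483 in the other pups. Pacsin1 was at 3416 in the cortex of pup 6 (others 2984 to 3012), Srxn1 at 1146 (969 to 994), Ngfr at 71.3 (28.8 to 34.6) and Igf1r at 507 (579 to 592). In the cortex of pup 8, Hmox1 was at 84.7 (92.5 to 93.9) and Tnfrsf1a at 188 (221 to 225), and Dlx1 was at 674 in the cortex of pup 2 (448 to 484).

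In the striatum/thalamus, pup 3 was low for Amigo2 at 781 normalized counts (others 847 to 855) and high for Nrgn at 1945 (1210.0 to 1284). Pup 8 was high for Ttr at 152 (72.5 to 80.2) and low for P2ry12 at 786 (861 to 866) and Slc2a1 at 386 (411 to 413). C1qa was at 521 in pup 6 (433 to 443) and Becn1 at 3393 in pup 2 (3175 to 3194). Uty, a Y-linked gene, was at 593 in the cortex (16.4 to 26.7) and at 606 in the striatum/thalamus (22.2 to 38.2) of pup 3.

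Eomes, near background throughout, was lower in cortex in all 4 HIBI pups (log2 fold change -0.97, adjusted p = 0.0178 in edgeR) and higher in cortex in all 4 sham pups (0.65, not past the threshold). The test of the difference between the arms gave an adjusted p of 0.31.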

How the results depend on the processing

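Of 318 genes that passed in sham pups, leaving out the replicate block gave 323, of which 306 were the same genes, and no named gene changed its call without the block, in either direction. Without the pup as block, 209 genes passed in HIBI pups against 221. The calls in sham pups ranged over 246 with DESeq2, 318 with limma-voom, 320 without a filter, 325 with the stricter filter, 316 after background subtraction and 286 in a fit of all 24 libraries. A test against a minimum fold of 1.5 left 73 genes, 36 higher and 37 lower in cortex. Reference-gene scaling gave 314, but 90 higher and 224 lower where TMM scaling had 150 and 168, and 258 of the 318 remained. Leaving out each pup gave 229 to 275 genes in sham pups, 112 to 134 higher and 117 to 147 lower, and 130 to 223 in HIBI pups, 72 to 111 higher and 54 to 112 lower, with the low counts without pups 1, 5 and 7 (153, 130 and 141). These fits have fewer libraries, and other causes were not tested. The difference between arms, by edgeR, had 0 genes (59 at an unadjusted p under 0.05), and also 0 on reference-gene scaling and without each pup. Of 112 named genes that passed, 16 lost the call without 1 of the pups.

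Among named genes, signs turned only for some that had not passed. On reference-gene scaling these were Syp (-0.058), Tnfrsf1a (-0.074) and Fos (-0.0), and in the fit of all libraries Tubb3 (0.009) and Dlx1 (0.034). Dlx1 also turned with DESeq2 (0.02) and the stricter filter (0.002), and ranged over -0.09 to 0.173 when each pup was left out, with the highest value without pup 8. Fos ranged over -0.007 to 0.334, with the lowest without pup 2 and a call gained without pup 6, as Dlx2, Gsn and Syn2 gained one without pup 8. Leaving out each pup, an alternative chosen after seeing the data, gave differences in total count of 51849 to 126954 and in mean negative control count of -1.38 to 0.08, the last without pup 3. Depth limits genes near 20 counts, where background compresses folds.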
